A study of Mus musculus with 6 samples.

Results

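The genes of mitochondrial fatty acid oxidation were followed in mouse hearts after a high fat diet (HFD) and a normal diet (ND). The group was given as 40 gene symbols, and a probe of the array belonged to it when its gene name was exactly one of them. On the array 38 of the 40 symbols were found, among 36163 gene names in all. The absent symbols were Eci1 and Eci2, but the array carried the same genes under their older names, Dci and Peci. The 38 genes had 50 probes, of which 47 were bright enough to be tested, with at least 1 for each gene. The 3 dim probes were 1 of Acadsb and 2 of Acaca.

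The hearts came from male C57BL/6 mice that started either diet at 4 weeks of age and stayed on it for 4 months. The HFD supplied 60% of its energy as fat, and the ND was standard chow. Total RNA of 3 hearts per diet was measured on Agilent 1-colour mouse arrays, 1 array per heart. The labels name the tissue as heart only, with no chamber given, and call the 3 hearts of a diet replicates without saying more, so p-values measure the spread between these samples.

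Fatty acids enter mitochondria as carnitine esters, and malonyl-CoA holds that entry back. Inside, each round of β-oxidation takes an acyl-CoA dehydrogenase, a hydratase, another dehydrogenase and a thiolase, and it shortens the chain by a single acetyl-CoA. Auxiliary enzymes rearrange double bonds, the electron transfer flavoprotein passes electrons to the respiratory chain, and odd-chain remnants leave through propionyl-CoA. The working heart draws much of its ATP from this pathway, and many of its genes are known targets of the lipid-sensing receptor PPAR alpha.

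Each probe on the array is 60 bases long and reports a short stretch of its transcript. The first 30 bases are shown for the probes whose difference between diets kept an unadjusted p below 0.05 under all 19 alternative analyses. The analysis that averaged the probes of a gene followed that mean in place of each probe. Positions are on mm9, as the array files give them, for the whole probe. Whether these bases code for protein was not examined here.
Crat, chr2:30265479-30265538, minus strand: tactccagcccaggagtgatcctgcccaag
Slc22a5, chr11:53678550-53678609, minus strand: gtgtaaatcaaaattctggctgccagccac
Cpt2, dimmer probe, chr4:107580325-107580384, minus strand: attgtgaatccctcagaaatccaggcacat
Cpt1a, dimmer probe, chr19:3384060-3384119, plus strand: acagtcccccgaagtcttttgaatcggctc
Hadha, chr5:30446215-30446274, minus strand: ggaagcaggaaaaagaccaaggctagcctt
Decr1, brighter probe, chr4:15846075-15846134, minus strand: gctacagatggaccgtggtcttccacttgt
Decr1, dimmer probe, chr4:15844647-15844706, minus strand: tacctcatgaatagatctatgcaagaatgt
Acadsb, chr7:138588828-138588887, plus strand: ctaatcagatatccagctggtgaagccatt

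The mean was higher in HFD hearts for all 5 genes of the carnitine shuttle and all 4 auxiliary genes for unsaturated fatty acids, and lower for all 4 genes of the propionyl-CoA branch. Of the 38 genes, 24 had a higher mean in HFD hearts and 14 a lower one. The log2 fold changes of HFD over ND ran from -0.33 to 0.48 with a median of 0.08, against a median of -0.01 over all 27587 probes tested. In linear terms the members ranged from 20.4% less to 39.4% more signal in HFD hearts. No member passed the Benjamini-Hochberg adjustment over all probes tested in limma, where the smallest adjusted p was 0.124, and 0.0145% of all probes passed it.
At an unadjusted limma p below 0.05, 10 of the 38 genes (26.3%) were higher in HFD hearts, against 5.23% of all probes tested, and 2 (5.26%) were lower, against 6.64%. All 3 HFD hearts lay above all 3 ND hearts for 12 genes (31.6%), against 7.92% of all probes. They lay below them for 5 genes (13.2%), against 11.1%. The upward counts were thus well above their background, and the downward counts were near theirs. The members were chosen with earlier results of these data known, so the upward excess is a description and no test.

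**Figure D1:**
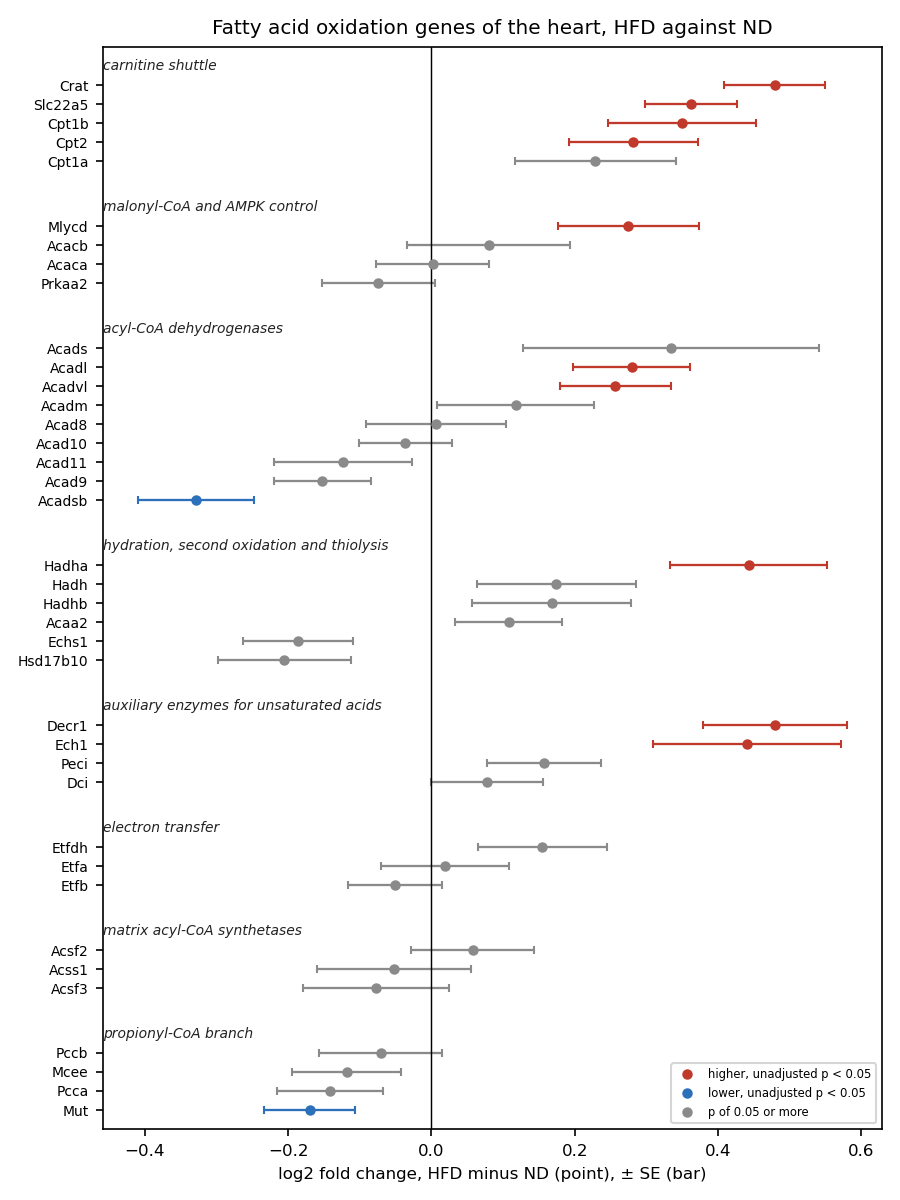
Log2 fold change of HFD over ND (points, x axis) with its standard error (bars) for the 38 genes, grouped by role, 3 hearts per diet. All 5 genes of the carnitine shuttle sit to the right of 0 and all 4 of the propionyl-CoA branch to its left.

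The arrays resembled each other, with 49.2% to 52.9% of probes well above background and no saturated spot. All 8 cardiomyocyte marker genes were well above background on every array. Erythroid markers were lower in HFD hearts for 5 of 5 genes tested, 4 of them at an unadjusted limma p below 0.05, with mean log2 levels of 0.57 to 1.55 in ND and 0.03 to 0.25 in HFD hearts. Atrial markers were lower on average for 4 of 4 genes tested, with mean log2 levels of 2.39 to 4.69 in ND hearts but -0.40, 4.17 and 5.77 in HFD hearts, the lowest being HFD 2. White adipocyte markers were lower for 4 of 5 genes tested, and their mean log2 level was -4.54 in HFD 2 against -2.59 to -1.20 in the other hearts. The mean of the brown adipocyte markers was 1.19 in HFD 1 against -0.17 to -0.02 elsewhere, largely through Ucp1. This gene, which defines brown fat, was well above background in HFD 1 alone, at -0.53 against -7.17 to -6.77 elsewhere. HFD 1 was the lowest HFD heart for Cidea and Cox8b, at 5.67 and 8.67, and the highest for Dio2, at -0.81. Brown adipocyte markers were higher for 1 of 3 genes tested, Cidea at 0.33 without overlap of the diets (unadjusted limma p of 0.0123). Cidea, Cox8b and Dio2 were well above background on every array, unlike Ucp1, and whether their signal came from brown fat was not tested. Lep and Elovl3 were above background on no array. Skeletal muscle markers were lower for 3 of 3 genes tested, 2 of them at an unadjusted limma p below 0.05, among them Acta1 at -0.92 (p of 0.0012). Of the rest of that list, Mylpf was well above background on no array, Myh4, Myh1 and Actn3 on 1 each and Myh2 on 2. Acta1 had a mean log2 level of 6.61 in ND hearts, and whether its signal came from skeletal muscle was not tested. Fibroblast markers were higher for 3 of 6 genes, endothelial markers for 4 of 5 and macrophage markers for 2 of 5. Only Pdgfra of the fibroblast list (-0.30, unadjusted limma p of 0.0215) and Kdr of the endothelial list (-0.26, unadjusted limma p of 0.0199) were below 0.05 among them. Both were lower in HFD hearts, though the dimmer Kdr probe had -0.06 with overlapping diets. In whole tissue, fewer cells of a type and less RNA per cell cannot be told apart, and the part of these cell types in the results below was not tested. Array HFD 2 also had a spike-in slope of 0.896, outside the range the scanner software accepts, whereas the other 5 arrays were within it.

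The 5 genes of the carnitine shuttle were all higher in HFD hearts, 4 of them at an unadjusted p below 0.05, with a median log2 fold change of 0.35. Levels are given as log2 of the processed intensity minus the 75th percentile of the array, so a level of 0 equals that percentile, with the hearts of a diet in the order of their replicate numbers. Levels of different probes are not comparable.
Crat, carnitine acetyltransferase, which buffers acetyl-CoA in the matrix as acetylcarnitine, had the smallest p of the members. Its log2 levels were 0.83, 0.84 and 0.81 in ND hearts and 1.22, 1.38 and 1.32 in HFD hearts. The diets were far apart relative to the spread within each, with a log2 fold change of 0.48 ± 0.07 (SE, n = 3 hearts per diet), or 39.4% more signal, and an unadjusted limma p of 0.000469 (adjusted 0.124).
Slc22a5 encodes OCTN2, the plasma membrane carnitine transporter that is the source of carnitine in heart muscle. It read 0.48, 0.50 and 0.47 in ND hearts and 0.79, 0.86 and 0.89 in HFD hearts. Each diet again formed a tight cluster of its own, and the log2 fold change was 0.36 ± 0.06 (unadjusted limma p of 0.00128, adjusted 0.158).

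Cpt1b, the muscle form of carnitine palmitoyltransferase 1 on the outer mitochondrial membrane and the step that malonyl-CoA inhibits, read 5.82, 5.85 and 5.92 in ND hearts. The HFD hearts read 6.04, 6.38 and 6.23, with HFD 1 closest to the ND range. Its log2 fold change was 0.35 ± 0.10 with an unadjusted limma p of 0.0145 (adjusted 0.306). The dimmer Cpt1b probe read 4.10 in HFD 1, inside the ND range of 4.08 to 4.14, and 4.46 and 4.30 in the other HFD hearts, with a log2 fold change of 0.17 ± 0.10 (unadjusted limma p of 0.142).
Cpt1a, the form that prevails in liver, read 2.54 to 2.76 in ND hearts and 2.69 to 3.01 in HFD hearts on its brighter probe, so the diets overlapped (0.23 ± 0.11, unadjusted limma p of 0.0878). On its dimmer probe the diets did not overlap: the ND hearts read -1.41, -1.30 and -1.21 and the HFD hearts -1.06, -0.66 and -0.62, with a log2 fold change of 0.52 ± 0.14 (unadjusted limma p of 0.00889, adjusted 0.273).
Cpt2, which hands the acyl group back to CoA on the inner membrane, read 6.27, 6.09 and 6.14 in ND hearts and 6.36, 6.57 and 6.40 in HFD hearts. HFD 1 again lay closest to the ND hearts. The log2 fold change was 0.28 ± 0.09 (unadjusted limma p of 0.0202), and the p was between 0.0532 and 0.0723 when ND 2, ND 3 or HFD 2 was left out. Its dimmer probe separated the diets more widely, at 1.70, 1.69 and 1.59 in ND hearts and 1.97, 2.16 and 2.16 in HFD hearts (0.44 ± 0.08, unadjusted limma p of 0.00175).

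**Figure D2:**
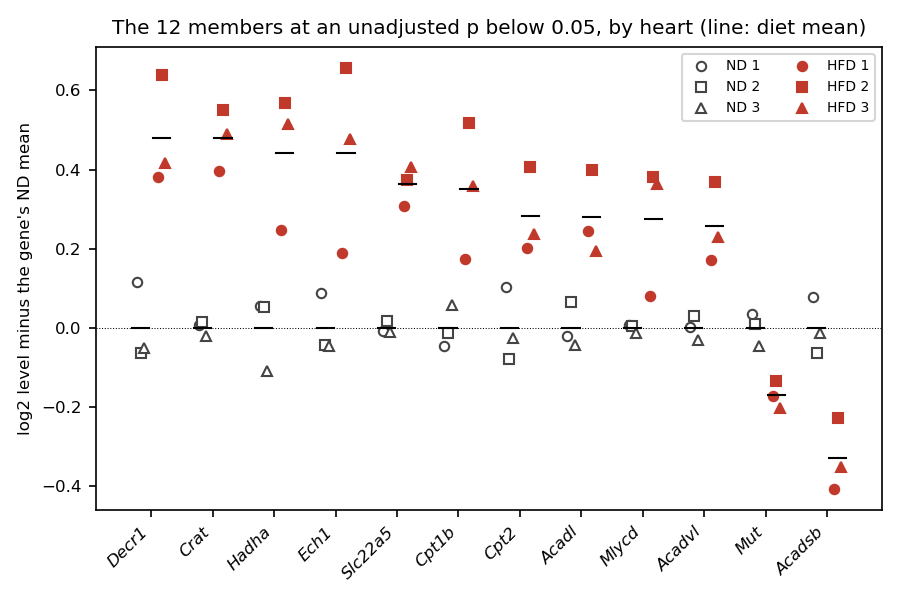
Log2 level of each heart minus the mean of the 3 ND hearts (y axis) for the 12 genes at an unadjusted limma p below 0.05, with lines at the mean of each diet. The diets do not overlap for any of the 12, and HFD 2 (filled squares) is the highest heart for most of those that are higher.

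Among the genes that set malonyl-CoA, Mlycd alone differed at an unadjusted p below 0.05. It encodes malonyl-CoA decarboxylase, which removes the inhibitor of Cpt1b. The ND hearts read 5.93, 5.93 and 5.91, and the HFD hearts 6.01, 6.31 and 6.29. HFD 1 thus lay just above the ND hearts and the others well above, with a log2 fold change of 0.28 ± 0.10 (unadjusted limma p of 0.0318, adjusted 0.375). The p was between 0.0742 and 0.0977 when ND 1, ND 2, ND 3, HFD 2 or HFD 3 was left out.
Acacb and Acaca, the acetyl-CoA carboxylases that make malonyl-CoA, had log2 fold changes of 0.08 ± 0.11 and 0.00 ± 0.08. Prkaa2, the AMPK catalytic subunit that prevails in muscle and inhibits these carboxylases, had -0.07 ± 0.08. The diets overlapped for each of these 3 genes. The 2 tested Acaca probes cover nearly the same bases of the genome and are no independent measures.

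The 9 acyl-CoA dehydrogenases, which take the first hydrogens from the acyl chain, differed in both directions. The long-chain enzymes Acadvl and Acadl were higher and the branched-chain enzyme Acadsb lower at an unadjusted p below 0.05.
Acadvl, the very-long-chain enzyme of the inner membrane, read 8.30, 8.33 and 8.27 in ND hearts and 8.47, 8.67 and 8.53 in HFD hearts (0.26 ± 0.08, unadjusted limma p of 0.016). Without ND 3 its p was 0.0502. Acadl, the long-chain enzyme, read 6.15, 6.23 and 6.12 in ND hearts and 6.41, 6.57 and 6.36 in HFD hearts (0.28 ± 0.08, unadjusted limma p of 0.0145). For both genes every HFD heart was above every ND heart.
Acadsb, which acts on short branched chains such as the isoleucine intermediate, went the other way. The ND hearts read 3.60, 3.46 and 3.51 and the HFD hearts 3.11, 3.29 and 3.17, with no overlap and 20.4% less signal in HFD hearts (-0.33 ± 0.08, unadjusted limma p of 0.00644, adjusted 0.254).
The medium-chain enzyme Acadm read 7.98 to 8.06 in ND hearts, and HFD 1 and HFD 3, at 8.07 and 8.01, were at or near that range while HFD 2 was at 8.37. The short-chain enzyme Acads was divided within the HFD group. It read 2.75, 2.70 and 2.78 in ND hearts, 2.60 in HFD 1, and 3.33 and 3.31 in HFD 2 and HFD 3, and its log2 fold change of 0.33 ± 0.21 had an unadjusted limma p of 0.156. Without HFD 1 this p was 0.000479. Acad9, best known as an assembly factor of respiratory complex I, was lower in every HFD heart, at 3.33 to 3.43 against 3.48 to 3.57 (-0.15 ± 0.07, unadjusted limma p of 0.0648). Acad8, of valine breakdown, Acad10 and Acad11 overlapped between the diets, with log2 fold changes of 0.01, -0.04 and -0.12.

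The steps after the acyl-CoA dehydrogenases were divided. Hadha was higher in HFD hearts, while Echs1 and Hsd17b10 were lower in every HFD heart than in any ND heart without reaching an unadjusted p of 0.05.
Hadha is the α subunit of the mitochondrial trifunctional protein and carries its hydratase and dehydrogenase activities for long chains. Its log2 levels were 5.53, 5.53 and 5.37 in ND hearts and 5.72, 6.04 and 5.99 in HFD hearts. HFD 1 was again the nearest to ND, and the log2 fold change was 0.44 ± 0.11 (unadjusted limma p of 0.00675, adjusted 0.258).
Hadhb, the β subunit and thiolase of the same complex, read 8.49, 8.61 and 8.60 in ND hearts and 8.57, 8.94 and 8.69 in HFD hearts. HFD 1 lay inside the ND range, and the log2 fold change was 0.17 ± 0.11 (unadjusted limma p of 0.181). Within each heart, Hadha minus Hadhb was -3.23 to -2.96 on the log2 scale in ND hearts and -2.90 to -2.70 in HFD hearts. This contrast was picked after the values were seen, so no test is given.

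The genes of the subunits lie head to head, and the sequence between them is shown for that reason. In RefSeq on GRCm38.p6 the start sites of Hadha (minus strand) and Hadhb (plus strand) on chromosome 5 are separated by 272 bases. Of the 250 bases before the Hadha start, the 228 in capitals also fall within the 250 bases before the Hadhb start.
Hadha, chr5:30154981-30155230, minus strand: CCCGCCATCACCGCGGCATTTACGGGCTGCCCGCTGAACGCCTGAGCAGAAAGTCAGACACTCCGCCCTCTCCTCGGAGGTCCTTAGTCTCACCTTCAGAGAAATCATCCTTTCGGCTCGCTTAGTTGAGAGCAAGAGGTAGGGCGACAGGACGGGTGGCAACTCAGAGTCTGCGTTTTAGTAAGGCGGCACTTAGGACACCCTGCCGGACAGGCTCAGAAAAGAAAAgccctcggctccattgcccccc
The table of promoters held 32 of the 38 genes, all but Cpt1b, Decr1, Acaa2, Crat, Acad9 and Mut. The 250 bases before the start were searched on both strands for the direct repeat AGGTCANAGGTCA that PPAR alpha binds, its looser form AGGNCANAGGNCA, of which the exact repeat is a special case, the ERR site TCAAGGTCA and the NRF1 site GCGCATGCGC. Neither repeat nor the ERR site was found in any of the 32 windows, against 0.0407%, 0.4% and 0.422% of the 27025 genes in the table. At shares this small, 32 windows of any genes would be likely to hold no match, so the absence does not set the members apart. Sites further from the start were not searched. The NRF1 site was in 1 window (3.12%), that of Etfdh, against 0.877% of genes, and 1 match is too few to compare these shares. The windows of the members held a median of 14.5 CG pairs, against 6 over all genes. All genes here means every gene with a window, whether or not it was tested on the array. The members were not compared with tested genes alone, so this difference is not shown to be particular to them.

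Acaa2, the thiolase for medium and long chains, read 8.98 to 9.04 in ND hearts and 9.10, 9.21 and 9.03 in HFD hearts. HFD 3 lay inside the ND range, and the log2 fold change was 0.11 ± 0.07 (unadjusted limma p of 0.198). Hadh, which oxidizes hydroxyacyl-CoA of short and medium chains, had 0.17 ± 0.11 with overlapping diets.
Echs1, the hydratase for short chains, was at 6.67 in all 3 ND hearts and at 6.43, 6.61 and 6.42 in HFD hearts (-0.19 ± 0.08, unadjusted limma p of 0.0513). Hsd17b10, a dehydrogenase of isoleucine breakdown and a subunit of mitochondrial RNase P, read 7.00, 7.03 and 6.93 in ND hearts and 6.63, 6.92 and 6.79 in HFD hearts (-0.21 ± 0.09, unadjusted limma p of 0.0679). HFD 2 was the HFD heart nearest to ND for both genes.

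The auxiliary enzymes for unsaturated fatty acids were higher in HFD hearts for all 4 genes, 2 of them at an unadjusted p below 0.05, with a median log2 fold change of 0.30.
Decr1, the dienoyl-CoA reductase, read 7.87, 7.69 and 7.70 in ND hearts and 8.13, 8.39 and 8.17 in HFD hearts on its brighter probe (0.48 ± 0.10, unadjusted limma p of 0.00303, adjusted 0.214). Its dimmer probe read 3.26, 3.24 and 3.03 in ND hearts and 3.66, 3.98 and 3.81 in HFD hearts (0.64 ± 0.11, unadjusted limma p of 0.00128). Neither probe overlapped between the diets.
Ech1, the dienoyl-CoA isomerase, read 7.60, 7.46 and 7.46 in ND hearts and 7.69, 8.16 and 7.98 in HFD hearts (0.44 ± 0.13, unadjusted limma p of 0.0151). HFD 1 lay near the ND hearts and the other HFD hearts well above them. Peci and Dci, the enoyl-CoA isomerases now called Eci2 and Eci1, had 0.16 ± 0.08, without overlap of the diets, and 0.08 ± 0.08, with overlap.

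**Figure D3:**
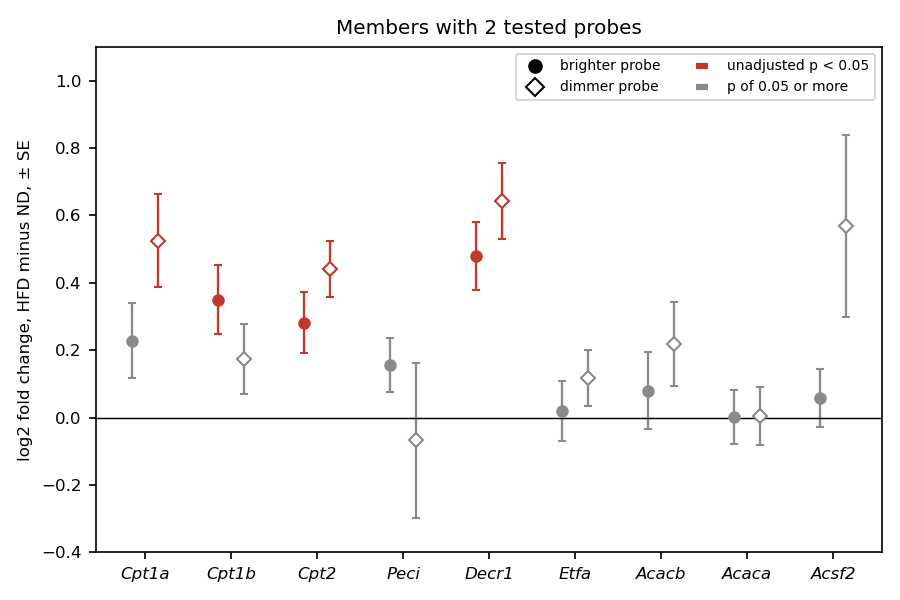
Log2 fold change of HFD over ND with its standard error (y axis) for the 9 genes with 2 tested probes, the brighter probe as a filled circle and the dimmer as an open diamond. Both probes of Decr1 and Cpt2 are at an unadjusted limma p below 0.05, Cpt1a and Cpt1b are so on 1 probe each, and Peci differs in sign between its probes within their errors.

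The electron transfer genes, which carry electrons from the acyl-CoA dehydrogenases to ubiquinone, held no gene at an unadjusted p below 0.05. Etfb, the β subunit of the flavoprotein, read 8.70, 8.74 and 8.71 in ND hearts and 8.61, 8.72 and 8.66 in HFD hearts (-0.05 ± 0.07, unadjusted limma p of 0.47). Etfa, the α subunit, had 0.02 ± 0.09 on its brighter probe and 0.12 ± 0.08 on its dimmer probe (unadjusted limma p of 0.21), and the diets overlapped on both. Etfdh, the ubiquinone oxidoreductase, was at 7.16 to 7.21 in ND hearts and 7.26 to 7.51 in HFD hearts, without overlap (0.15 ± 0.09, unadjusted limma p of 0.137).
The 250 bases before its RefSeq start are shown with the NRF1 match in capitals, as the only window of the members with a match.
Etfdh, chr3:79628768-79629017, minus strand: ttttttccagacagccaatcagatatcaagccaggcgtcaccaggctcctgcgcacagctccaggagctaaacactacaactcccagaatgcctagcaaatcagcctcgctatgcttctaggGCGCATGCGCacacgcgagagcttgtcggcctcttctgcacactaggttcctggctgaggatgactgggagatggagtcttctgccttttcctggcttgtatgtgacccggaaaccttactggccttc

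The matrix acyl-CoA synthetases likewise had no gene at an unadjusted p below 0.05. Acss1, which activates acetate, read 6.93, 7.00 and 6.91 in ND hearts and 6.72, 7.09 and 6.87 in HFD hearts, so the HFD hearts spanned the ND range (-0.05 ± 0.11). Acsf3, which activates malonate, had -0.08 ± 0.10. Acsf2, assigned to medium chains, had 0.06 ± 0.09 on its brighter probe, and 0.57 ± 0.27 with overlapping diets on its dimmer probe (unadjusted limma p of 0.0798).

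The propionyl-CoA branch, which turns the remnants of odd-chain fatty acids and of some amino acids into succinyl-CoA, was the only role with every gene lower in HFD hearts. The median log2 fold change of its 4 genes was -0.13. Mut, the methylmalonyl-CoA mutase that ends the branch, read 4.76, 4.73 and 4.68 in ND hearts and 4.55, 4.59 and 4.52 in HFD hearts. The diets did not overlap, and the log2 fold change was -0.17 ± 0.06, or 11.1% less signal (unadjusted limma p of 0.0375, adjusted 0.393). The p was between 0.0508 and 0.12 when any heart other than HFD 2 was left out. Pcca and Pccb, the subunits of propionyl-CoA carboxylase, had -0.14 ± 0.07 and -0.07 ± 0.09, and Mcee, the epimerase between them and Mut, had -0.12 ± 0.08. The diets overlapped for these 3 genes, and none was at an unadjusted p below 0.05.

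The 3 HFD hearts did not contribute evenly. HFD 2 was the highest HFD heart for 32 of the 38 genes (84.2%), against 48.7% of all probes tested, and HFD 1 was the lowest for 25 (65.8%), against 44.7%. Over the 10 genes that were higher at an unadjusted p below 0.05, the median distance from the ND mean was 0.22 in HFD 1, 0.46 in HFD 2 and 0.39 in HFD 3. HFD 2 is the array with the low spike-in slope and the lowest mean levels of atrial and white adipocyte markers. HFD 1 had the highest mean levels of atrial, white adipocyte and brown adipocyte markers, the last largely through Ucp1. Without HFD 2, 9 genes were higher (against 5.35% of all probes) and 4 lower (against 7.26%) at an unadjusted limma p below 0.05. The median log2 fold change was then 0.01 for the members in place of 0.08, and -0.03 over all probes in place of -0.01. Without HFD 1 the counts were 11 (against 6.2%) and 1 (against 5.63%), and the median was 0.12 for the members and 0.01 over all probes.
The position on the slide differed too, since row 1 held HFD 1 and HFD 2, whereas HFD 3 and the 3 ND arrays were on row 2. With the row as a term in the fit, 5 genes were higher (against 3.05% of all probes) and 2 lower (against 4.68%) at an unadjusted p below 0.05. These were Crat, Slc22a5, Hadha, Decr1 and Cpt1a, and Acadsb and Acad11. Cpt1b, Cpt2, Mlycd, Acadvl, Acadl, Ech1 and Mut had p between 0.0522 and 0.154. Row 1 held no ND heart, so in the fit with the row as a term the diet difference is that of HFD 3 from the 3 ND hearts. HFD 1 and HFD 2 enter that fit only through their spread. The arrays of row 2 alone, where HFD 3 stands against the 3 ND hearts, therefore gave the same log2 fold changes and are no separate result. There the log2 fold changes were 0.49 for Crat, 0.41 for Slc22a5, 0.51 for Hadha, 0.42 for Decr1 and -0.35 for Acadsb.

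**Figure D4:**
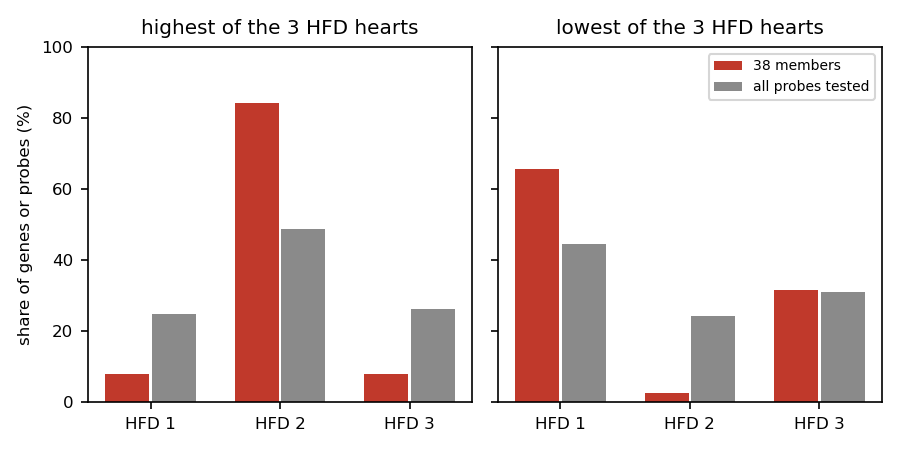
Share of the 38 members and of all probes tested (y axis, percent) for which each HFD heart was the highest (left) or the lowest (right) of the 3. HFD 2 is the highest heart for 84.2% of the members and HFD 1 the lowest for 65.8%.

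The other genes of the pathway, from a list of 36 all of which could be tested, are set beside the members. At an unadjusted limma p below 0.05, 9 (25%) were higher in HFD hearts, against 5.23% of all probes, and 2 (5.56%) lower, against 6.64%, so the lower count was near its background, and none passed the adjustment. Their median log2 fold change was 0.07.
Beside the members' carnitine shuttle, Slc25a20, the carnitine-acylcarnitine translocase of the inner membrane, read 3.38, 3.38 and 3.27 in ND hearts and 3.72, 3.86 and 3.76 in HFD hearts (0.43 ± 0.07, unadjusted limma p of 0.00105). Slc25a42, the mitochondrial CoA carrier, had 0.43 ± 0.07 (unadjusted limma p of 0.000698). Both were without overlap between the diets, as was Acot2, a matrix thioesterase that frees fatty acids from CoA, at 1.11 ± 0.17.
Prkag2 and Prkag3, γ subunits of AMPK, had 0.31 ± 0.12 and 0.39 ± 0.13. Prkag3 was dim and its diets overlapped, and normexp background correction or the slide row as a term each lowered its log2 fold change to 0.18 (unadjusted limma p of 0.0795 and 0.293). Gcdh, the dehydrogenase of lysine breakdown, had -0.28 ± 0.10, in the direction of Acadsb.

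Among the 16 genes of the PPAR alpha list, 4 (25%) were higher, against 5.23% of all probes, and 1 (6.25%) lower, against 6.64%, at an unadjusted p below 0.05. Acot1, a cytosolic thioesterase that shares much of its sequence with Acot2, had 1.56 ± 0.29, and cross-hybridisation between these genes was not tested. Ppargc1b, a coactivator of mitochondrial genes, had 0.60 ± 0.14, and Ucp3, an inner membrane carrier linked to fatty acid use, had 0.50 ± 0.18 on its brighter probe and 0.16 ± 0.36 on its dimmer probe, with overlapping diets on both.
The average of the Ucp3 probes gave 0.33 with an unadjusted limma p of 0.231.
Ppard, the PPAR delta receptor, was lower at -0.17 ± 0.06. Ppara itself had -0.06 ± 0.08, and Pdk4, the kinase that holds back pyruvate oxidation, had 0.60 ± 0.28 with overlapping diets. Lpl was lower in every HFD heart than in any ND heart on both its probes. It had -0.23 ± 0.10 on the brighter (unadjusted limma p of 0.0529) and -0.35 ± 0.11 on the dimmer (unadjusted limma p of 0.0188). The mean was higher in HFD hearts for 10 of the 16 genes and lower for 6. The calls of Ucp3, Prkag2, Prkag3, Gcdh and Ppard each ended when a single heart was left out, with p of up to 0.104, 0.0926, 0.0788, 0.111 and 0.0995.

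**Figure D5:**
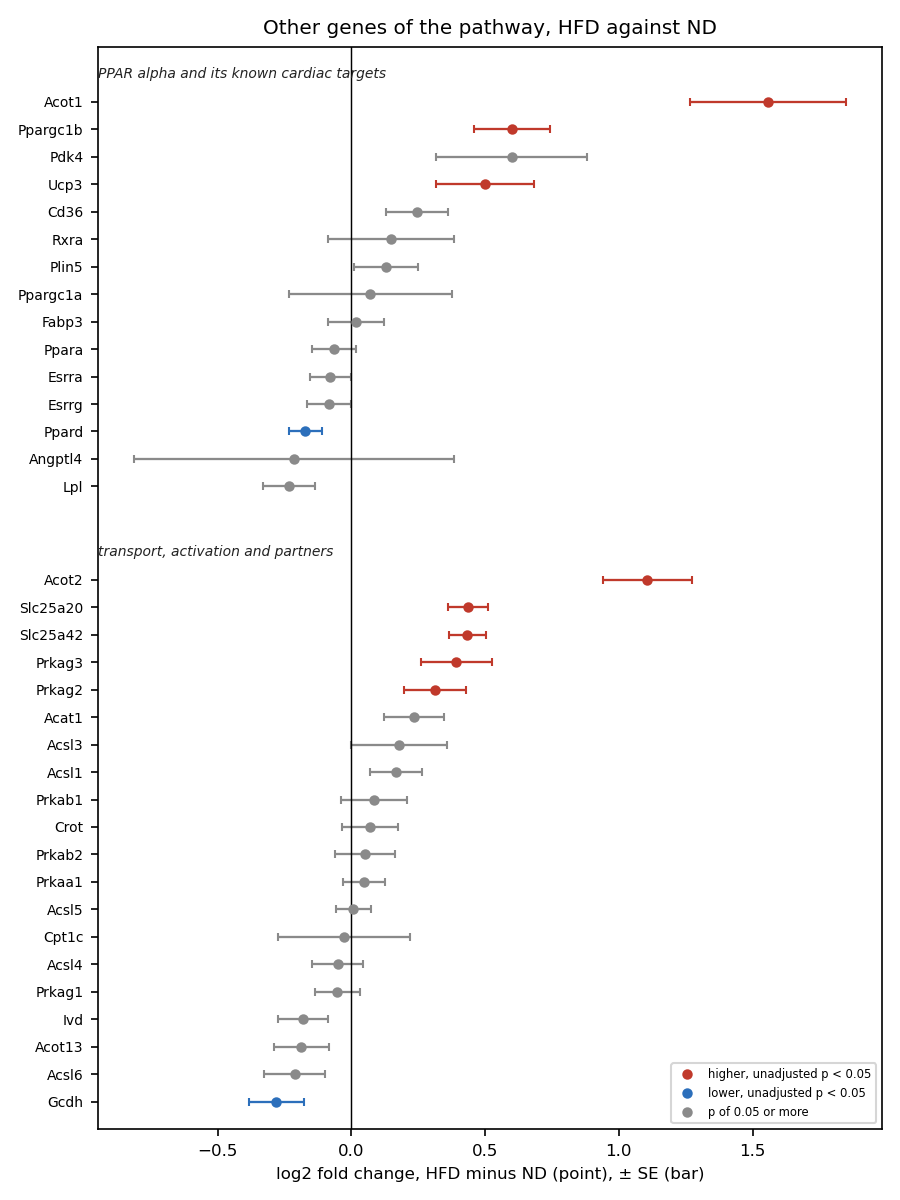
Log2 fold change of HFD over ND (points, x axis) with its standard error (bars) for 35 of the 36 other genes of the pathway in their 2 lists, 3 hearts per diet. Acot1 and Acot2 lie furthest to the right, and most of the others within 0.5 of 0.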

How the data were processed

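RNA of 6 hearts, 3 per diet, was hybridised to 1 Agilent array each, all on 1 slide. The authors deposited intensity values on a linear scale, from which version 10.7.1.1 of Agilent's Feature Extraction had removed background array by array, without normalization between arrays. The authors also deposited a log2 table of the same arrays, whose making is not given in the sources used here. Its columns matched their own arrays in rank (Spearman's rho of 1, and at most 0.954 with another array), they share a median of 4.557, and the table served as an alternative. Gene names come from the array design.

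Control spots and between 127 and 190 outlier spots per array were left out, and spots of a probe averaged. Levels are log2 intensity minus the 75th percentile of the array. A probe entered the test if at least 1 diet had it well above background on all its arrays and at least 2 arrays of each diet had a value. The diets were compared with limma 3.58.1 (lmFit, then eBayes, two-sided; R 4.3.3) and p-values adjusted by Benjamini-Hochberg across 27587 probes. The script was tested on simulated data. A gene is represented by its tested probe with the highest mean level. The number of hearts limits the precision.

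Alternatives were quantile normalization, normexp (offset 50), all probes without a filter, probes bright on all 6 arrays alone, the authors' table, the methods' t-test, intensity trend with robust variances, array weights, a replicate block, outlier spots kept, slide row, each heart left out, and the mean over all probes of a gene. The members, the lists of other pathway genes and the marker lists were chosen with earlier results of these data known. Each heart's values are given for genes at an unadjusted p below 0.05 and for the gene with the brightest probe of each role, and for a few others chosen after their values were seen (Cpt1a, Acadm, Hadhb, Acads, Echs1 and Hsd17b10). Of the other pathway genes, those at an unadjusted p below 0.05 are named, with Ppara, Pdk4 and Lpl added after their values were seen. The separate values of 1 of them are not reported here, though the counts include it. Symbols were matched to RefSeq, from which the promoter windows come (GRCm38.p6). No protein sequences were used here. Figures were drawn in Python with matplotlib.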

Additional observations from a re-analysis of the deposited data

How the results depend on the processing

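No called member changed direction under any of the 19 alternatives. With the slide row as a term and with row 2 alone, the diet difference rests on HFD 3 as the only HFD heart. Crat, Slc22a5, Hadha, Decr1, Acadsb and the dimmer probes of Cpt1a and Cpt2 kept an unadjusted p below 0.05 under each alternative. Where the probes of a gene were averaged, Cpt1a, Cpt2 and Decr1 were followed by that mean in place of each probe. No member passed the adjustment except Crat with an intensity trend and robust variances (1 gene), where 81 of 27587 probes passed it. Members at an unadjusted p below 0.05 numbered 12, but 19 with the authors' table and 7 with the slide row as a term. Higher members numbered 10 at first (against 5.23% of all probes), 15 with the authors' table (against 5.81%) and 5 with the slide row (against 3.05%). Lower members numbered 2 at first (against 6.64% of all probes). They numbered 4 with normexp (against 7.2%), the authors' table (against 6.39%) or the methods' t-test (against 6.95%). There were 5 with an intensity trend and robust variances (against 7.55%) or array weights (against 8.32%), and 1 without a filter on dim probes (against 3.01%). Leaving out each heart in turn gave 7 to 11 higher members, against 3.67% to 6.2% of all probes. It gave 1 to 4 lower members, the 4 without HFD 2, against 4.15% to 7.26% of all probes. Other pathway genes at an unadjusted p below 0.05 numbered 11, where 5.23% of all probes were higher and 6.64% lower. They numbered 7 with the methods' t-test (4.45% and 6.95%) and 14 with array weights (5.73% and 8.32%). There were 13 with quantile normalization (5.92% and 6.22%), normexp (4.06% and 7.2%) or the authors' table (5.81% and 6.39%). An intensity trend with robust variances gave 13 as well (4.79% and 7.55%). With 1 heart left out there were 6 to 12, against 3.67% to 6.2% of all probes higher and 4.15% to 7.26% lower. The median of the members stayed between 0.01 and 0.13, and that of all probes between -0.04 and 0.01. The cause of these shifts was not tested. With the replicate number as a replicate block, 9 members were higher (against 5.06% of all probes) and 1 lower (against 5.89%). The deviations of same-numbered hearts from their diet means had correlations of -0.154, 0.147 and 0.19, and those of other pairs -0.302 to 0.19. Deviations of 3 hearts from their own mean are tied to each other, so these values cannot decide whether the numbers pair hearts. With 3 hearts per diet, differences of the size of most members' standard errors could not be resolved.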
